A study of Rattus norvegicus with 54 samples.

Results

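The collagen genes were followed through the perinatal period of the Wistar rat in liver and in hind limb skeletal muscle. Members were all probe sets of the array whose annotation gave a single gene symbol made of "Col", a number, "a" and a number. There were 27 such probe sets for 25 genes, of 15310 probe sets with a single symbol for 14506 genes. By class, 10 belonged to fibrillar collagens, 3 to basement membrane collagens and 14 to other collagens, the last for 12 genes because Col6a4 had 3 probe sets. The RefSeq gene table listed 44 collagen genes of this name form, of which 25 were members, and the other genes, such as Col4a2 and Col6a1 to Col6a3, were not analysed here.

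RNA of whole tissue was hybridised to Affymetrix rat gene arrays, and the study used the series to follow mitochondrial metabolism around birth. Liver was sampled in 6 groups of 4 arrays (n = 4) from foetuses at F16, F20 and F22, neonates at P1 and P4 and adults at P90, where F and P count days of gestation and days after birth. Skeletal muscle was sampled in 6 groups of 5 arrays (n = 5) at F16, F18, F20, F22, P1 and P4. All animals were Wistar rats with no named allele or agent, foetuses were taken by Caesarean section, and whether animals of a group shared a litter was not given in the sources used here. Values are log2 RMA signals, so that a difference of 1 is a doubling, and a change is the difference of group means. Each tissue was normalised apart from the other, and the tissues are therefore compared only by their changes. A change was called higher or lower at an adjusted p of at most 0.05 (limma, Benjamini-Hochberg over all 15310 probe sets), and the share of all those probe sets called the same way is given beside each first count of collagens as its background.

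Collagens are matrix proteins of helical chains wound around each other. Fibrillar collagens such as types I, III and V form the ropes that bear tension in dermis, tendon, bone and the connective tissue of muscle, whereas type IV collagens form the mesh of basement membranes around muscle fibres and vessels. Collagens of the third class lie on the surface of fibrils (types IX, XII, XIV and XVI), anchor the epidermis (types VII and XVII), span cell membranes (types XIII and XXIII) or build other networks (types VI, VIII and X). In liver they are made mainly by stellate cells, portal fibroblasts and the mesothelium.

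Hepatocyte markers (8 genes) had a mean log2 signal of 12.40 to 13.20 on the liver arrays, and skeletal muscle fibre markers (8 genes) had one of 10.15 to 12.59 on the muscle arrays. Some arrays also carried markers of the other tissue. On 7 of 24 liver arrays (F16 replicates 1, 3 and 4, F20 replicate 1, F22 replicates 1 and 4, and P4 replicate 1) the muscle fibre markers averaged 7.22 to 8.87, above 6.55 to 6.80 on the other 17, and Acta1, the actin of muscle fibres, reached 11.85 at F22. On 10 of 30 muscle arrays (F16 replicates 1, 2 and 4, F18 replicate 4, F20 replicates 4 and 5, F22 replicate 2, P1 replicate 2, and P4 replicates 3 and 5) the hepatocyte markers averaged 8.12 to 9.34, above 6.83 to 7.83 on the other 20, and Alb reached 12.21 at F16. How these signals arose was not tested. Counts of collagens called between time points are also given without these arrays, with limits of 7 in liver and 8 in muscle that were chosen after the data were seen.

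In muscle, 18 of 27 collagen probe sets rose between F16 and P4 and 4 fell, against a background of 26.7% higher and 35.0% lower. The median change of the collagens was 0.45, and that of all probe sets was -0.04. Of the fibrillar collagens 8 of 10 rose and 1 fell (median 0.89), all 3 of the basement membrane rose (median 0.25), and of the others 7 of 14 rose and 3 fell (median 0.26). Without the 10 muscle arrays that carried hepatocyte markers, 15 rose and 4 fell, of which 14 and 4 had the same call with all arrays. Muscle F16 then rested on replicates 3 and 5 only, here and wherever those arrays are left out below. Replicate 5 is among the muscle arrays that lay apart, named at the end. It read highest of the F16 arrays for Col1a1, Col1a2, Col3a1, Col4a1 and Col14a1. In the moderated F-test over all 6 time points 23 of 27 were called, against 75.0% of all probe sets, and the 4 not called were the 3 probe sets of Col6a4 and Col4a3.

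Col1a1 (probe set 10737532), the major chain of type I collagen, had the largest change in muscle. Its F16 arrays read 11.92, 11.94, 12.06, 11.45 and 12.38, and its P4 arrays read 13.70, 13.74, 13.76, 13.74 and 13.64. No later array read below 13.25, so that F16 stood apart from all later groups. The rise was 3.40-fold, or 1.77 ± 0.09 (SE, n = 5, limma adjusted p = 2.65e-16). Most of it lay between F16 and F18 (1.33 ± 0.09, limma adjusted p = 4.52e-12, and 1.06 ± 0.07 without the arrays with hepatocyte markers), and the group means then moved from 13.28 at F18 to 13.52 at F20, 13.68 at F22, 13.65 at P1 and 13.72 at P4. Tendon markers, of a tissue rich in type I collagen, moved at the same step, with 3 of 4 higher and 1 lower from F16 to F18 (median 0.96) and a mean signal of 9.31 to 9.77 at F16 and 10.15 to 10.57 at F18. The tendon markers Fmod and Kera also stand in the fibril-binding list. Of the muscle fibre markers 6 of 8 rose and 1 fell at that step. Fibroblast and mesenchyme markers were mixed, with 4 of 11 higher and 1 lower from F16 to F18 (median 0.06). Their mean signal was 9.52 to 9.72 at F16 and 10.09 to 10.33 at F18. From F16 to P4 5 of them rose and 4 fell (median 0.06). The part of these cells in the collagen values was not tested.

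Col1a2 (probe set 10853559), the partner chain in the type I molecule, followed the same course. Its F16 arrays read 11.88, 11.85, 12.06, 11.71 and 12.32 and its P4 arrays 13.43, 13.50, 13.45, 13.48 and 13.38. The groups did not overlap, and the change was 1.49 ± 0.07 (SE, limma adjusted p = 5.42e-17). Over the 30 muscle arrays Col1a2 was the probe set most like Col1a1 of all (Pearson r = 0.99), a description over arrays that share their time points. The promoter of Col1a2 is shown because it is the member of the leading type I and III set with an entry in the RefSeq promoter table, which held 20 of the 25 genes and none for Col1a1, Col2a1, Col3a1, Col12a1 or Col14a1. It runs from 250 bases before to 50 after the annotated start at chr4:33518307-33518606 (GRCr8, plus strand). The 50 bases after that start open with ATG, so it may be the start of coding and not of transcription. Matches to CCAAT and TATAAA on either strand are in capitals.
Col1a2: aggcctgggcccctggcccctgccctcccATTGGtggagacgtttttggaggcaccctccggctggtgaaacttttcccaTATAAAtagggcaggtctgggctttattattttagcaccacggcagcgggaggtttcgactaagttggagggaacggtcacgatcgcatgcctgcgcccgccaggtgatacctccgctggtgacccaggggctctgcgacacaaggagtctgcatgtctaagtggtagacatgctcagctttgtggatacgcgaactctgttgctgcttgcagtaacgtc
CCAAT, the box bound by NF-Y, was found on either strand in 37.5% of 33469 promoters of this length, TATAAA in 14.2% and GGGCGG, the core of the Sp1 box, in 33.1%. Among the 20 collagen promoters 7 held CCAAT, 4 held TATAAA and 11 held GGGCGG. These letters are matches and not shown sites.

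Col3a1 (probe set 10923052), the fibrillar chain of loose connective tissue, read 11.02, 10.99, 11.11, 10.83 and 11.27 at F16 and 12.61, 12.68, 12.75, 12.52 and 12.49 at P4 in muscle. The groups did not overlap, and the change was 1.57 ± 0.06 (SE, n = 5, limma adjusted p = 3.83e-18). It was called higher from F16 to F18 (0.94), from F18 to F20 (0.24) and from F20 to F22 (0.21). In the last of these steps Col1a1 and Col1a2 had changes of 0.16 each that were not called (limma adjusted p = 0.202 and 0.109), and without the arrays with hepatocyte markers all of Col1a1 (0.20), Col1a2 (0.22) and Col3a1 (0.26) were called.

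Type V collagen sets the diameter of fibrils, and its 3 chains rose in muscle by 0.85 ± 0.06 for Col5a1, 0.93 ± 0.06 for Col5a2 and 0.94 ± 0.07 for Col5a3 (SE). Col5a2 read 10.22, 10.19, 10.29, 10.16 and 10.60 at F16 and 11.27, 11.28, 11.17, 11.23 and 11.14 at P4. Its groups did not overlap. Col5a1 and Col5a2 fell again slightly from P1 to P4 (-0.18 and -0.19), whereas Col5a3 changed little from F16 to F18 (0.08) and rose from F18 to F20 (0.37) and from F20 to F22 (0.36).

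**Figure D1:**
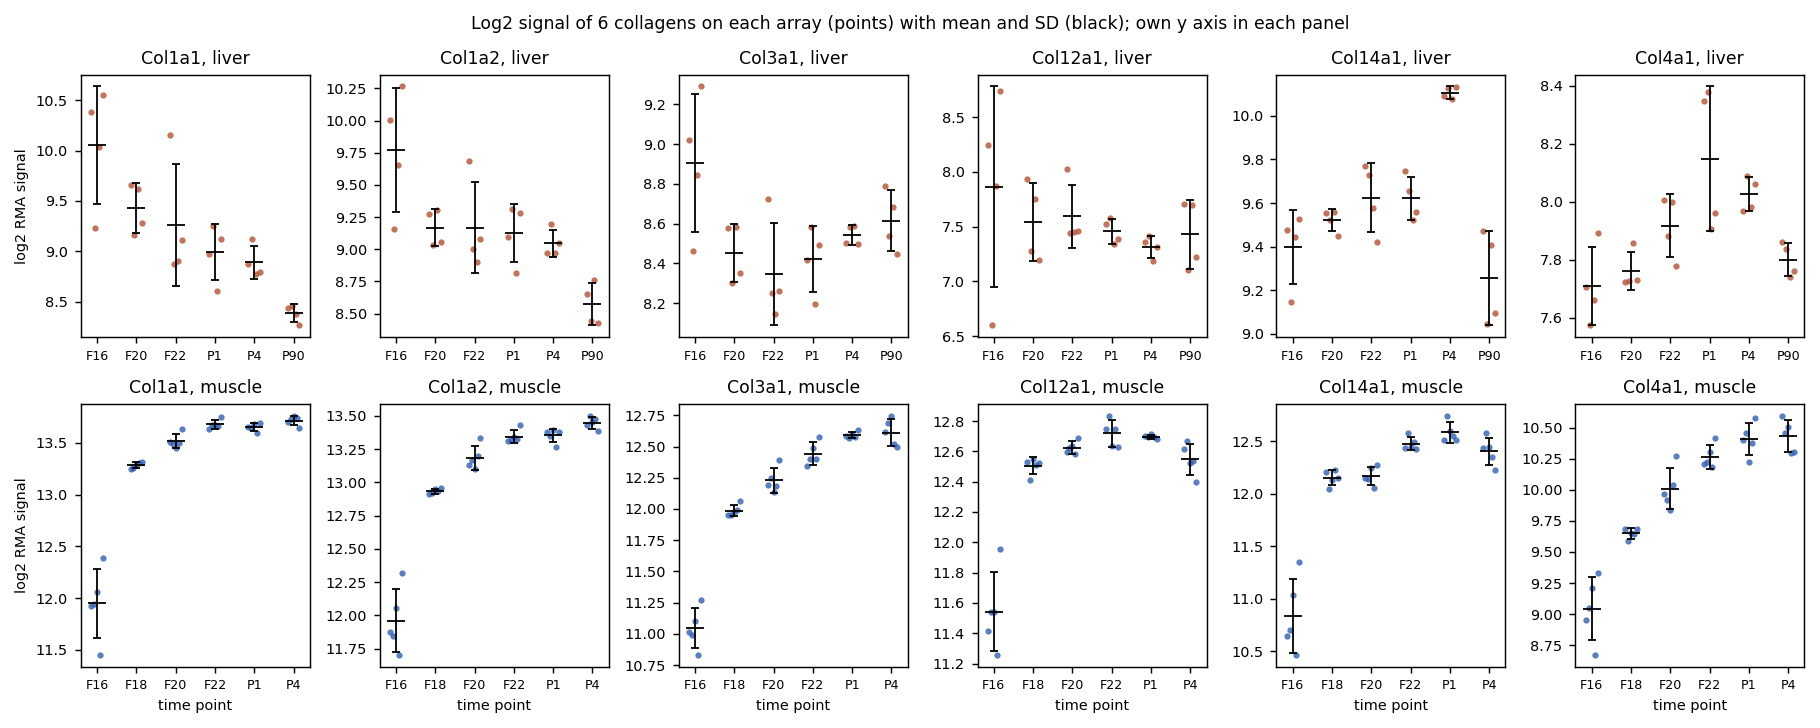
Log2 RMA signal of 6 collagens on every liver array (upper row) and muscle array (lower row) at each time point, with the group mean and SD in black and its own vertical axis in each panel. In muscle the F16 arrays lie below all later arrays for the 6 genes, and in liver the F16 arrays of Col1a1 spread from 9.23 to 10.55.

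Of the fibril-surface collagens Col12a1, Col14a1 and Col16a1 rose in muscle, whereas Col9a1 and Col9a2 of cartilage, given further on, fell. Col14a1 (probe set 10896558), a fibril-associated collagen of dermis, tendon and muscle connective tissue, read 10.65, 10.70, 11.03, 10.47 and 11.35 at F16 and 12.43, 12.58, 12.44, 12.35 and 12.23 at P4. These groups did not overlap and the change was 1.57 ± 0.10 (SE, n = 5, limma adjusted p = 7.10e-14), of which 1.31 fell between F16 and F18. Col12a1, a related collagen of tendon and fascia, rose by 1.01 ± 0.08 and Col16a1 by 0.54 ± 0.06 (SE). From F18 on Col12a1 had means of 12.51, 12.62, 12.72, 12.70 and 12.55.

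Col4a1 (probe set 10789594), a chain of the type IV mesh found in nearly every basement membrane, read 8.96, 9.05, 9.21, 8.67 and 9.33 at F16 and 10.60, 10.46, 10.51, 10.30 and 10.30 at P4 in muscle. The groups did not overlap and the change was 1.39 ± 0.09 (SE, n = 5, limma adjusted p = 1.12e-13). The rise was spread over the foetal steps, with called changes of 0.61 from F16 to F18, 0.36 from F18 to F20 and 0.26 from F20 to F22. Whether the courses of Col4a1 and Col1a1 differ was not tested. Of the endothelial markers 6 of 8 rose and 0 fell from F16 to P4 (median 0.49), with a mean signal of 9.31 to 9.65 at F16 and 9.83 to 10.14 at P4. By step, 5 of these markers rose from F16 to F18 and 3 from F18 to F20, whereas from F20 to F22 0 rose and 0 fell. Their part in the Col4a1 values was not tested.

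Col4a3 and Col4a4 form the type IV mesh of a few specialised membranes such as that of the kidney glomerulus, and the genes lie head to head with starts 413 bases apart. Their promoter windows share 88 bases, and they are shown because these neighbours had changes of like size.
Col4a3, chr9:91323740-91324039, plus strand: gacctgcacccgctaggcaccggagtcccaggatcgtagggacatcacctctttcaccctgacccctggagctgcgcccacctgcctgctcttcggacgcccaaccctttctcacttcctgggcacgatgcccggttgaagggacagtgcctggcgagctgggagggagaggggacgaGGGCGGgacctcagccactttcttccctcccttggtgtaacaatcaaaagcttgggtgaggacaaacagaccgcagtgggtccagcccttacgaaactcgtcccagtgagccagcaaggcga
Col4a4, chr9:91323528-91323827, minus strand: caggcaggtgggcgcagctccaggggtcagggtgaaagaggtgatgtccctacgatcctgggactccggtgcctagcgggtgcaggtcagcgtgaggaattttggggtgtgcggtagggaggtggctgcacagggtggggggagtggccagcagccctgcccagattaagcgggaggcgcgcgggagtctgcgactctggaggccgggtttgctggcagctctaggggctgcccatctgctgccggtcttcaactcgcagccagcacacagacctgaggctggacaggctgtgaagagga
Both windows are GRCr8 from RefSeq, 300 bases long, with the GGGCGG match of Col4a3 in capitals. In muscle Col4a3 read 7.62, 7.55, 7.70, 7.54 and 7.69 at F16 and 7.79, 7.68, 8.00, 7.95 and 7.94 at P4, and the groups overlapped by 1 array of P4. The change was 0.25 ± 0.08 for Col4a3 and 0.20 ± 0.06 for Col4a4 (SE, limma adjusted p = 0.00531 and 0.0041), both called. Without the arrays with hepatocyte markers neither was called (0.11 with adjusted p = 0.462 and 0.14 with adjusted p = 0.223, limma).

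Among the collagens of cartilage Col9a1, Col9a2 and Col27a1 fell in muscle, Col11a1 and Col11a2 rose, and Col2a1 and Col10a1 were not called. Col9a1, which coats the fibrils of cartilage, fell in muscle by 1.23 ± 0.22 (SE, n = 5, limma adjusted p = 2.04e-05), and Col9a2 by 0.47 ± 0.11. Col9a1 read 9.75, 9.98, 9.92, 9.56 and 10.32 at F16 and 8.41, 8.63, 8.13, 9.60 and 8.62 at P4, and the fourth P4 array lay within the F16 range. Col2a1, the fibril of cartilage, had a change of -0.29 ± 0.23 (SE, limma adjusted p = 0.293), with P4 arrays from 9.57 to 11.37 and the highest again on replicate 4. Col27a1, a cartilage fibril, fell by 0.28 ± 0.09, while the minor cartilage fibrils Col11a1 and Col11a2 rose by 0.36 ± 0.11 and 0.45 ± 0.09. Col11a1 read 9.83, 9.98, 9.95, 9.73 and 10.32 at F16 and 10.28, 10.42, 10.07, 10.56 and 10.25 at P4, with overlap, and was not called without the arrays with hepatocyte markers (0.28, limma adjusted p = 0.0892). Col10a1, a marker of hypertrophic cartilage, read 7.92, 7.90, 8.07, 9.32 and 9.55 at F20, where 2 arrays lay far above the others (SD 0.81). Its change from F16 to P4 was 0.51 ± 0.22 (SE, limma adjusted p = 0.0504), and it was called without the arrays with hepatocyte markers (0.53, adjusted p = 0.0179).

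Of the 9 measured cartilage markers 6 fell, 0 rose and 3 were not called in muscle from F16 to P4 (median -1.31), led by Hapln1, the link protein of cartilage, with -2.40, and Matn4 with -1.94, whereas Acan, the main cartilage proteoglycan, had a change of 0.01 (limma adjusted p = 0.979). Their mean signal was 8.67 to 9.39 at F16 and 7.53 to 8.86 at P4. The arrays with the highest means within their group, 9.47 and 9.75 on F20 replicates 4 and 5 and 8.86 on P4 replicate 4, were those with high Col10a1 at F20 and with high Col9a1 and Col2a1 at P4. On the liver arrays the mean of these markers was 6.11 to 6.63. The part of cartilage in the collagen values of muscle was not tested.

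Col17a1, a membrane collagen that holds basal keratinocytes to the basement membrane, and Col7a1, the anchoring fibril below it, rose in muscle by 1.25 ± 0.10 and 0.61 ± 0.08 (SE, n = 5, limma adjusted p = 7.37e-12 and 6.80e-08). Col17a1 read 8.00, 7.94, 8.04, 8.29 and 8.22 at F16 and 9.21, 9.40, 9.57, 9.34 and 9.23 at P4, without overlap. They were also the 2 collagens called higher in muscle from F22 to P1 (0.32 and 0.28). All 5 measured epidermis markers rose from F16 to P4 (median 3.14), with Krt1 at 4.00, Krt10 at 3.70 and Krt14 at 1.83. Across birth, from F22 to P1, 0 of these markers rose and 0 fell, and from P1 to P4 0 rose and 3 fell. Their mean signal was 8.83 to 9.66 at F16, 11.28 to 11.83 at F18 and 11.82 to 12.21 at P4, and the part of skin in the collagen values was not tested.

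**Figure D2:**
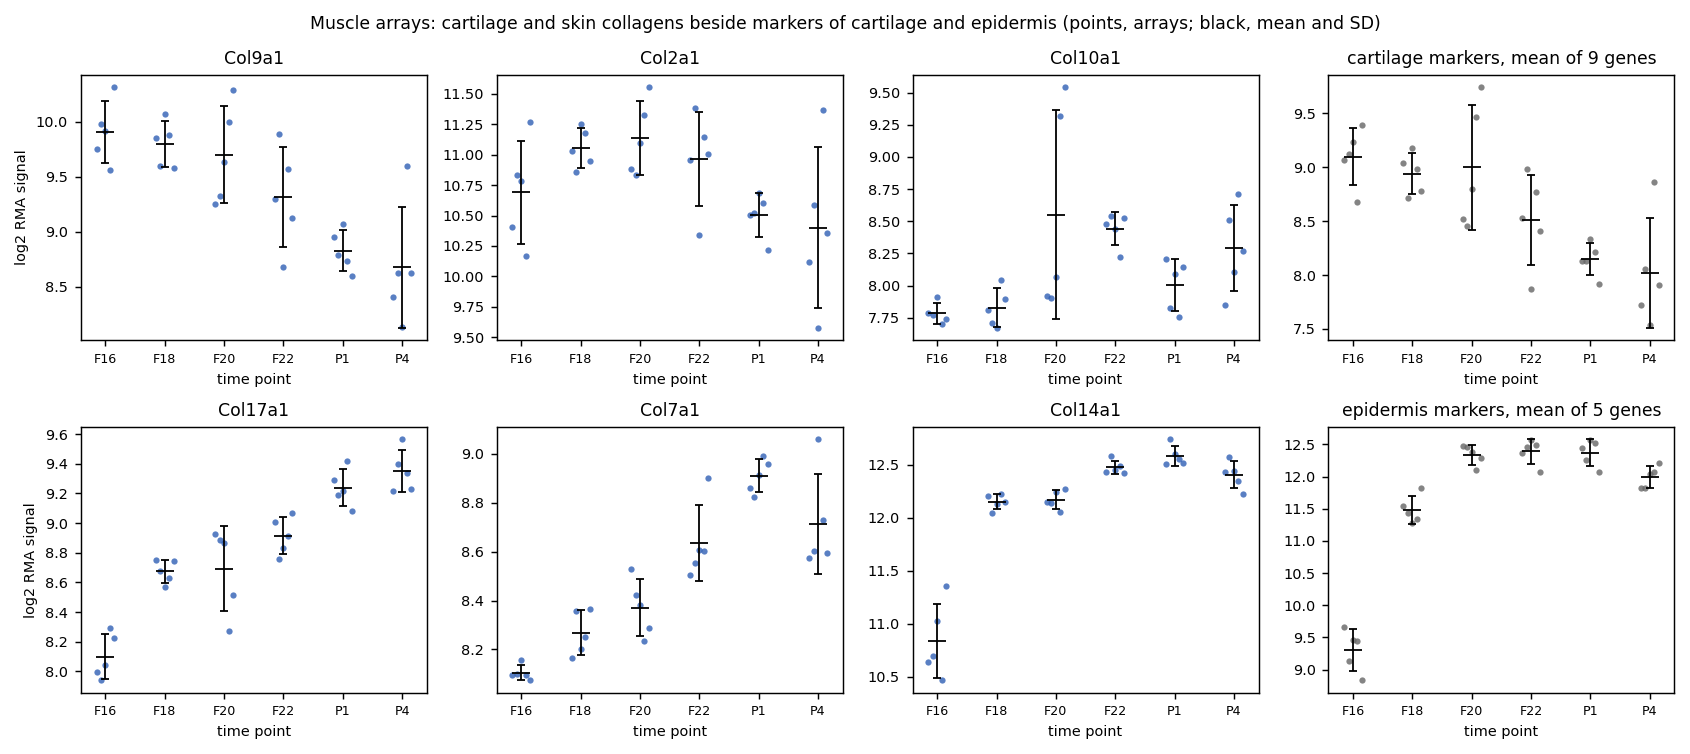
Log2 RMA signal in muscle of the cartilage collagens Col9a1, Col2a1 and Col10a1 (upper row), of Col17a1, Col7a1 and Col14a1 (lower row), and of the mean of cartilage and epidermis markers, with 1 point an array and the mean and SD in black. The 2 highest F20 points of Col10a1, 9.32 and 9.55, are the arrays with the highest cartilage means, and the epidermis mean is at least 11.28 from F18 on.

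Among the remaining collagens of muscle, Col23a1, a transmembrane collagen, fell. It read 8.91, 9.18, 9.09, 9.11 and 9.01 at F16 and 8.76, 8.64, 8.81, 8.57 and 8.69 at P4, without overlap, with a change of -0.37 ± 0.06 (SE, n = 5, limma adjusted p = 1.59e-06). Col13a1, a transmembrane collagen of the neuromuscular junction, rose by 0.28 ± 0.05, and Col8a1, a network collagen of vessels, by 0.24 ± 0.08. Without the arrays with hepatocyte markers Col8a1 was not called from F16 to P4 (0.22, limma adjusted p = 0.149) or from F16 to F18 (0.27, 0.123). With all arrays Col8a1 moved back and forth, higher from F16 to F18 (0.34), lower to F20 (-0.37) and higher again from P1 to P4 (0.31). The 3 Col6a4 probe sets had changes of -0.14, 0.02 and 0.06 in muscle and were not called.

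Step by step in muscle, 14 collagens rose and 1 fell from F16 to F18 (background 14.1% and 19.3%), 6 rose and 3 fell from F18 to F20 (14.6% and 15.9%), and 5 rose and 0 fell from F20 to F22 (6.02% and 13.8%). Across birth, from F22 to P1, 2 rose and 2 fell (9.50% and 8.82%), the falls being Col11a1 (-0.38) and Col11a2 (-0.31). From P1 to P4, 3 rose and 3 fell (19.2% and 14.7%), with Col11a2 up by 0.32. Counts near the background, as in the last steps, are no result about collagens. Without the arrays with hepatocyte markers 10 rose and 0 fell from F16 to F18, 5 rose and 2 fell from F18 to F20, 8 rose and 0 fell from F20 to F22, 2 rose and 2 fell from F22 to P1, and 4 rose and 2 fell from P1 to P4. With all arrays but 1, the F20 to F22 count was 2 without F22 replicate 5, and 8 without F16 replicate 5, and with all arrays it was 13 when p was not adjusted (threshold 0.05).

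**Figure D3:**
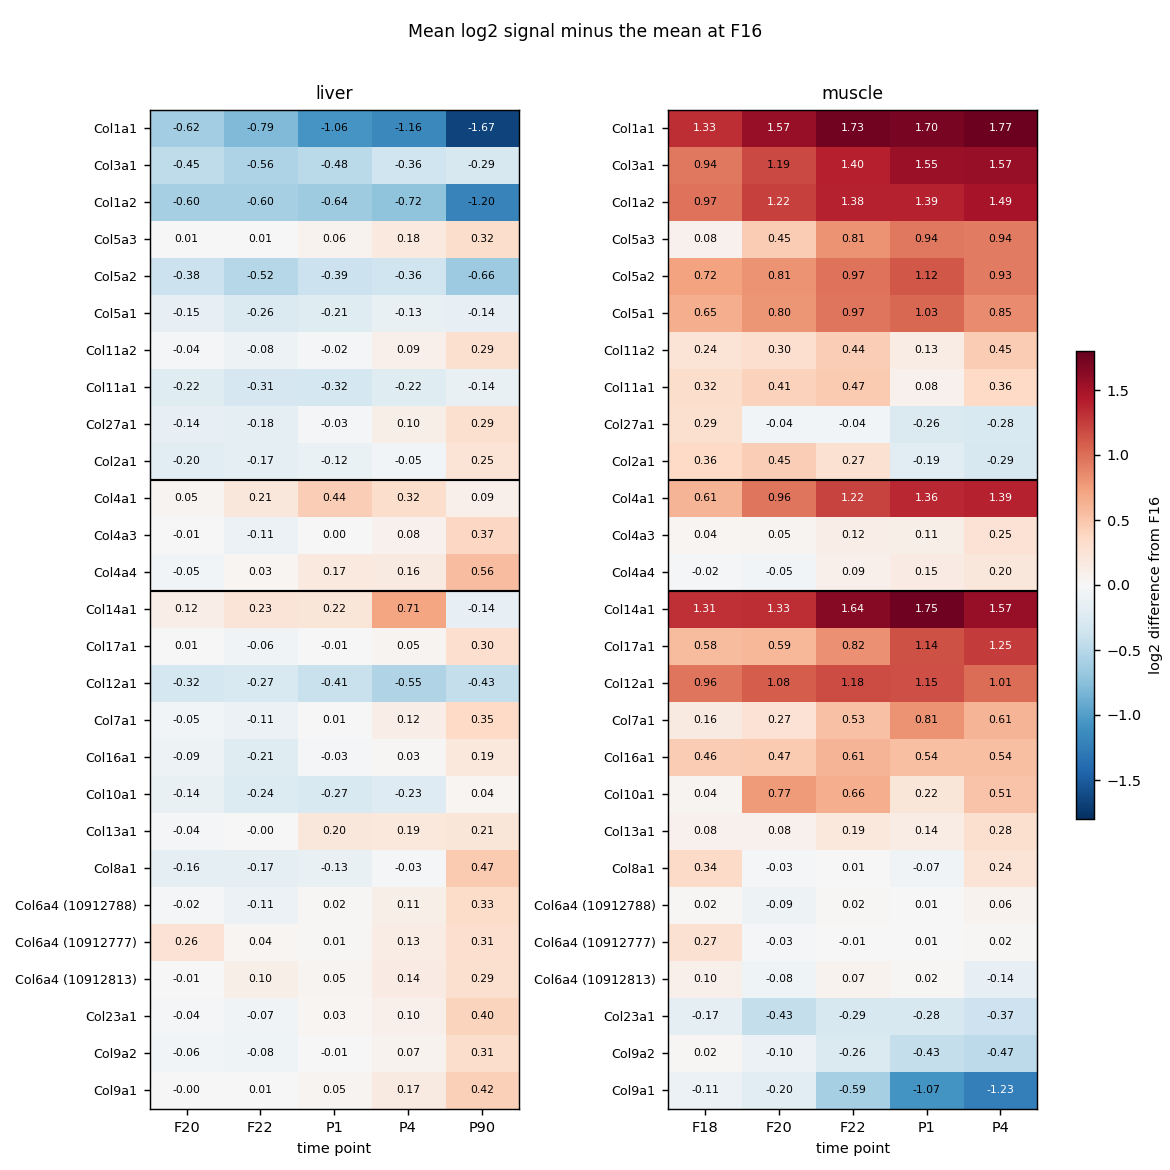
Mean log2 signal of each collagen probe set at each time point minus its mean at F16, in liver (left) and muscle (right), with fibrillar, basement membrane and other collagens parted by black lines and red above F16. Muscle Col1a1 stands at 1.33 by F18 and 1.77 at P4, and liver Col1a1 at -1.16 by P4.

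In liver most collagens were dim, and only 6 of 27 probe sets (Col1a1, Col1a2, Col3a1, Col4a1, Col5a1 and Col14a1) had a mean signal above the median of all probe sets, against 17 of 27 in muscle. From F16 to P4, 4 rose and 6 fell, smaller shares in both directions than the background of 23.1% and 35.0%. The counts alone therefore do not mark out the collagens. The split was 2 and 5 when quantile normalisation was repeated and 2 and 7 when arrays were centred on their median. In the F-test over 6 time points 24 of 27 were called (84.3% of all probe sets). Those that fell were Col1a1, Col1a2, Col3a1, Col5a2, Col10a1 and Col11a1, and those that rose were Col14a1, Col4a1, Col13a1 and Col5a3. Without the arrays that carried muscle fibre markers, F16 rested on replicate 2 alone. The changes of these 6 genes, given below, were then smaller or of the other sign. With 1 array at F16 it cannot be said whether the falls hold.

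Col1a1 in liver read 10.38, 9.23, 10.04 and 10.55 at F16 and 8.87, 9.12, 8.77 and 8.79 at P4. The groups did not overlap, and the change was -1.16 ± 0.25 (SE, n = 4, limma adjusted p = 2.69e-04). Col1a2 read 10.01, 9.16, 9.65 and 10.26 at F16 and 8.97, 9.20, 8.97 and 9.05 at P4, with a change of -0.72 ± 0.18 (SE, limma adjusted p = 0.00134). Here F16 replicate 2 lay below a P4 array. On replicate 2, the F16 array without muscle fibre markers, both genes read near P4. F22 replicate 1, with the highest muscle fibre markers of liver (8.87), read 10.16 for Col1a1. The other F22 arrays read 8.88 to 9.11, among them replicate 4, which also carried those markers (7.72).

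Col3a1 in liver read 9.02, 8.46, 8.85 and 9.29 at F16 and 8.50, 8.58, 8.59 and 8.50 at P4, overlapping, with a change of -0.36 ± 0.14 (SE, n = 4, limma adjusted p = 0.0274). The call was lost without F16 replicate 1 (adjusted p = 0.0747), F16 replicate 4 (0.146), P4 replicate 1 (0.055) or P4 replicate 4 (0.0575), by limma. Col5a2 changed by -0.36 ± 0.12 and lost its call without F16 replicate 1 (0.0709) or 4 (0.0884). It read 8.42, 7.79, 8.06 and 8.52 at F16 and 7.83, 7.95, 7.82 and 7.76 at P4. Col11a1, at 7.14, 6.99, 7.15 and 7.23 at F16 and 6.72, 6.94, 6.97 and 7.02 at P4, changed by -0.22 ± 0.08 and lost its call without F16 replicate 4 (0.0669) or P4 replicate 1 (0.0917). Col12a1 had the largest standard error of the liver collagens, with 8.25, 6.60, 7.87 and 8.74 at F16, and its change of -0.55 ± 0.28 was not called (limma adjusted p = 0.107).

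Without the 7 liver arrays with muscle fibre markers, 4 collagens rose and 0 fell from F16 to P4, and F16 then rested on replicate 2 alone, which is taken to vary like the other groups. Col1a1 had a change of -0.34 (limma adjusted p = 0.23), Col1a2 of -0.09 (0.756), Col3a1 of 0.09 (0.68), Col5a2 of 0.06 (0.791) and Col11a1 of -0.01 (0.949). Col10a1 kept its size at -0.21 (-0.23 with all arrays) but was not called (0.243, limma). Col14a1 (0.97), Col4a1 (0.47) and Col13a1 (0.30) stayed higher, and Col12a1 was called higher (0.70, limma adjusted p = 0.0206). Of the fibroblast and mesenchyme markers 4 of 11 rose and 5 fell in liver from F16 to P4 with all arrays, and their mean signal was 7.45 on F16 replicate 2 against 7.63 to 8.01 on the other F16 arrays. In whole tissue, fewer cells of a type and less RNA per cell cannot be told apart.

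**Figure D4:**
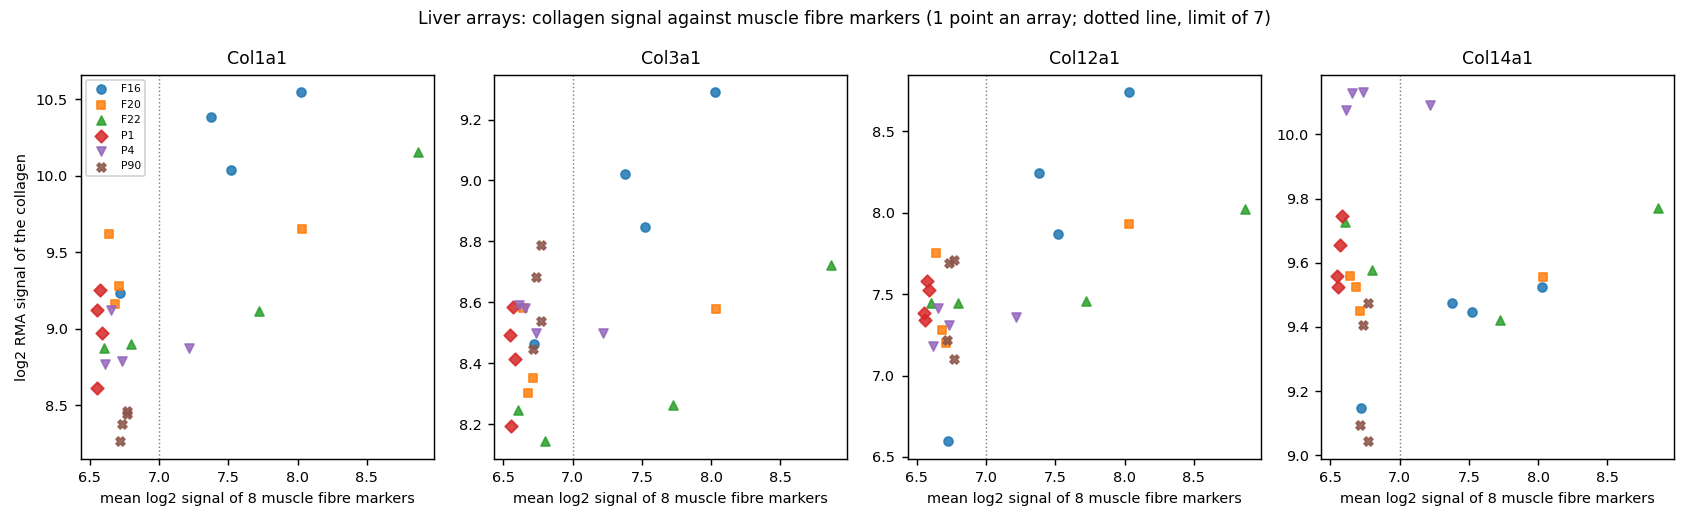
Log2 RMA signal of Col1a1, Col3a1, Col12a1 and Col14a1 on the 24 liver arrays against the mean log2 signal of 8 muscle fibre markers, with 1 point an array and a symbol for each time point; the dotted line marks the limit of 7. The 3 F16 arrays right of the line read 10.04 to 10.55 for Col1a1, and the F16 array left of it reads 9.23.

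Col14a1, which lies on fibrils, had the largest rise of the collagens in liver. It read 9.48, 9.15, 9.45 and 9.52 at F16 and 10.09, 10.13, 10.08 and 10.13 at P4, without overlap, a change of 0.71 ± 0.09 (SE, n = 4, limma adjusted p = 6.54e-07). Most of it came after birth, from P1 to P4 (0.49 ± 0.09, limma adjusted p = 0.00159), where it was the 1 collagen called (background 4.87% higher and 6.10% lower), also without the arrays with muscle fibre markers. The value fell back at P90, to 9.47, 9.04, 9.41 and 9.09 (-0.85 ± 0.09 from P4, limma adjusted p = 6.00e-08).

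Col4a1 in liver read 7.70, 7.57, 7.66 and 7.89 at F16, rose to 8.35, 8.38, 7.90 and 7.96 at P1, and read 7.97, 8.09, 7.98 and 8.06 at P4. F16 and P4 did not overlap (0.32 ± 0.09, SE, n = 4, limma adjusted p = 0.00415). At P90 it read 7.86, 7.84, 7.74 and 7.76. Endothelial markers, cells that rest on such a membrane, rose in 7 of 8 cases from F16 to P4 in liver (median 0.56) and fell in 5 of 8 from P4 to P90 (median -0.41), and their part in the Col4a1 values was not tested. Col13a1, at 6.94, 6.91, 7.07 and 7.10 at F16 and 7.15, 7.23, 7.22 and 7.19 at P4, rose by 0.19 ± 0.07 and lost its call without F16 replicate 1 (0.0619) or 2 (0.0701). Col5a3, at 7.23, 7.29, 7.20 and 7.19 and then 7.30, 7.48, 7.40 and 7.46, rose by 0.18 ± 0.07 and lost its call without F16 replicate 3 (0.0615) or 4 (0.0649) or P4 replicate 2 (0.0826) or 4 (0.0692), all by limma.

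In the single steps of liver few collagens were called. From F16 to F20, 0 rose and 4 fell (background 9.22% and 13.2%), namely Col1a2, Col3a1, Col5a2 and Col11a1. Without the arrays with muscle fibre markers F16 rested on replicate 2 alone, and the changes of these genes were -0.03, -0.05, 0.01 and -0.12. Col12a1 then had a change of 0.81, and replicate 2 was its lowest F16 array (6.60). With all arrays its mean was 7.86 at F16 and 7.54 at F20. The count of collagens called at this step was 0 without F16 replicate 1 and 8 without F16 replicate 2. From F20 to F22 none was called by limma, nor when p was not adjusted (0 at a threshold of 0.05), nor without the arrays with muscle fibre markers (background 15.3% and 21.6%), and 3 were without F20 replicate 2. From F22 to P1, 3 rose and 0 fell (14.8% and 21.9%), namely Col4a1 (0.23), Col13a1 (0.20) and Col16a1 (0.18). Without F22 replicate 2, or without the arrays with muscle fibre markers, 1 was called.

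From P4 to adult P90, 14 of 27 liver collagens rose and 4 fell (background 28.8% and 27.1%), and 9 rose and 4 fell without the arrays with muscle fibre markers. The split was 15 and 1 when quantile normalisation was repeated and 15 and 2 when arrays were centred on their median. The rises were small and dim: Col8a1 led with 0.51 ± 0.11, Col4a4 with 0.40 ± 0.07 and Col2a1 with 0.30 ± 0.08 (SE). All 14 lay at or below the median signal, where 31.5% of all probe sets were called higher, against 26.1% above it, and the median change of all dim probe sets was 0.13 against -0.10 for bright ones. Of the 6 bright collagens 0 rose and 3 fell, Col14a1, Col1a2 (-0.48 ± 0.18) and Col4a1 (-0.23 ± 0.09), and the other fall was Col5a2 (-0.30 ± 0.12). Col4a1 had a change of the same size without the arrays with muscle fibre markers (-0.24) but was not called (limma adjusted p = 0.0655). Col1a1 had a change of -0.50 ± 0.25 (limma adjusted p = 0.0865), and -0.51 ± 0.14 (0.00707) without those arrays.

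Changes from F16 to P4 differed between the tissues for 19 of 27 collagens, with the change lower in liver than in muscle for 15 and higher for 4 (background 33.0% and 24.9%). Without the arrays that carried markers of the other tissue, liver F16 rested on replicate 2 alone and muscle F16 on replicates 3 and 5. Calls without those arrays take liver F16 replicate 2 to vary like the other groups. For Col1a1 the liver change was 2.93 ± 0.25 log2 units below the muscle change, that is -2.93 (SE, limma adjusted p = 2.63e-14), and -1.84 without those arrays. The difference was -2.21 ± 0.18 for Col1a2, -1.93 ± 0.14 for Col3a1 and -1.28 ± 0.13 for Col5a2, and without those arrays -1.37, -1.32 and -0.76. Col12a1, at -1.55, Col14a1, at -0.86, Col11a1, at -0.57, and Col11a2, at -0.36, were not called without them (-0.15, -0.29, -0.30 and -0.24). Col1a1, Col1a2, Col3a1, Col5a2 and Col11a1 were called in opposite directions in the tissues with all arrays, falling in liver and rising in muscle, and none of these falls was called without the arrays with muscle fibre markers. The changes higher in liver were those of Col9a1 (1.39), Col9a2 (0.53), Col23a1 (0.46) and Col27a1 (0.38), which fell in muscle. Across birth, from F22 to P1, the change was higher in liver for 5 collagens and lower for 0 (background 12.5% and 19.5%), namely Col11a1, Col11a2, Col27a1, Col16a1 and Col13a1, by 0.25 to 0.38. Without the arrays that carried markers of the other tissue 4 were higher and 0 lower, and Col11a1 was not called at nearly the same size (0.37, limma adjusted p = 0.0623).

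**Figure D5:**
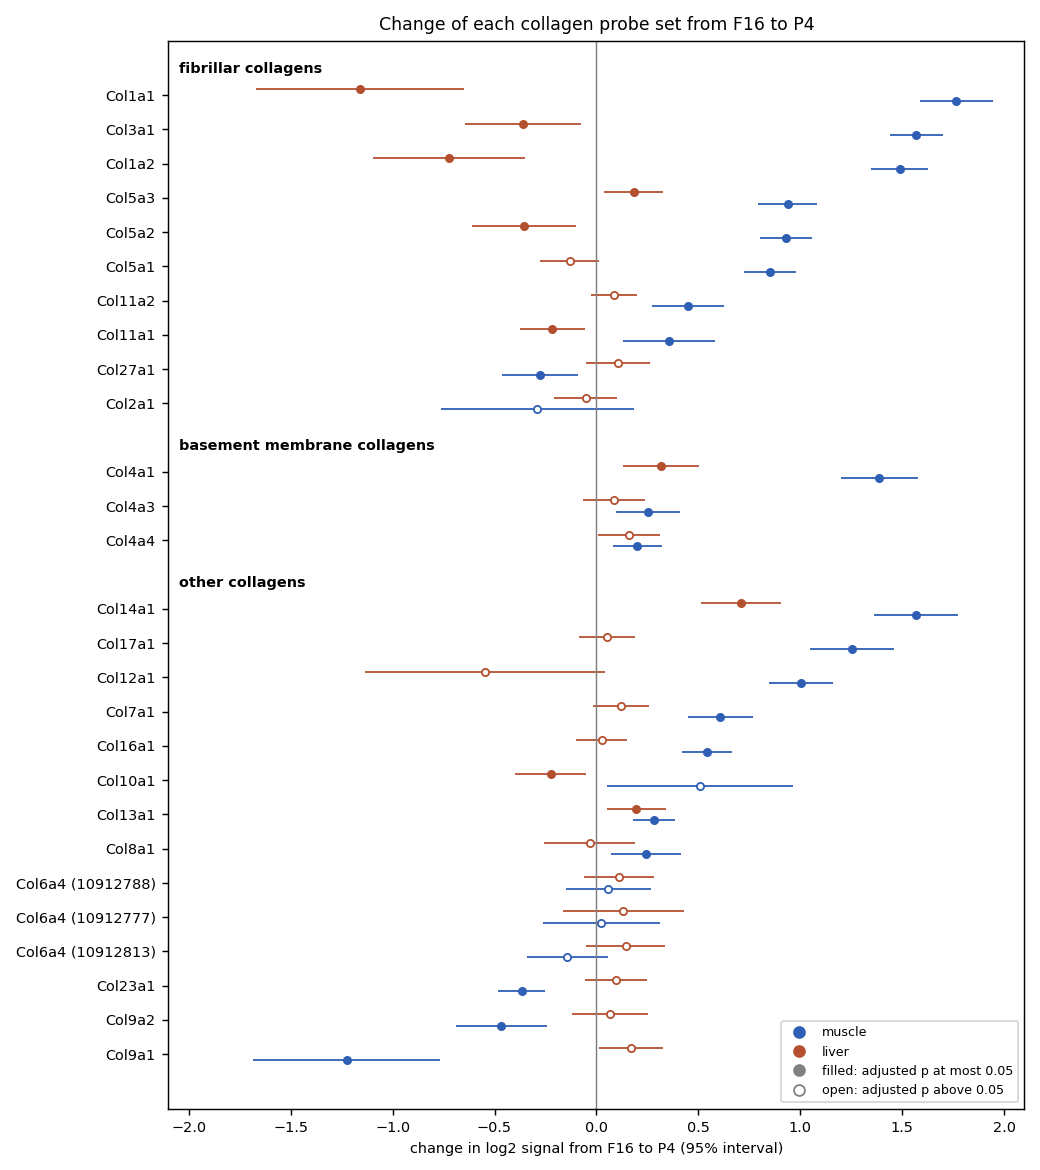
Change in log2 signal from F16 to P4 of each collagen probe set in muscle (blue) and liver (red), ordered by class, with 95% intervals of the moderated fit and filled points where the adjusted p was at most 0.05. Fibrillar collagens other than Col2a1 and Col27a1 lie right of 0 in muscle, led by Col1a1 at 1.77, and Col9a1 lies furthest left at -1.23.

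The enzymes and partners of collagens were counted from F16 to P4 in both tissues, with all arrays. They were not counted again without the arrays that carried markers of the other tissue. The shares of all probe sets called were 26.7% higher and 35.0% lower in muscle and 23.1% and 35.0% in liver, and a list near these shares is no result about the list. In muscle all 5 lysyl oxidases, which cross-link fibrils, rose (Loxl1 by 1.34, Loxl4 by 1.28, Lox by 0.95 and Loxl3 by 0.67), and so did all 12 measured fibril-binding proteoglycans and glycoproteins (median 0.88), led by Fmod, a regulator of fibril growth, with 3.12, Dpt with 2.76 and Prelp with 1.44. Enzymes that hydroxylate or glycosylate the chains were near the background in muscle, with 5 of 14 higher and 5 lower (Plod2 -0.64, P4ha3 -0.62). Of the folding and export genes 4 of 6 rose and 1 fell, and Serpinh1, the collagen chaperone, had a change of -0.01. Of the propeptide-cleavage genes 3 of 6 rose (Adamts2 by 1.71, Pcolce by 1.48) and 2 fell (Adamts3 by 0.87).

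The list of collagen breakdown held proteases and also their inhibitors Timp1 to Timp4. In muscle 10 of its 13 genes rose and 0 fell (median 0.81), among them the inhibitors Timp2 (0.73), Timp3 (0.28) and Timp4 (0.94). The largest rises were those of the collagenases Mmp13 with 5.67 and Mmp8 with 3.62, Mmp9 with 3.68 and Ctsk, the collagen-cutting protease of osteoclasts, with 3.07. Bone markers moved beside them, with 6 of 8 higher and 2 lower (median 1.29) and a mean signal of 7.71 to 8.28 at F16 and 9.28 to 9.92 at P4. All 7 measured erythroid markers rose as well (median 1.65). The part of these cells was not tested. Of the collagen receptors 7 of 9 rose and 1 fell, and of the basement membrane partners 4 of 6 rose (Lama5 by 1.37, Lamc1 by 1.31) and 2 fell (Lama1 by 0.92, Agrn by 0.23).

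In liver the hydroxylation, cross-linking, receptor and basement membrane lists lay near the background. Of the 14 hydroxylation and glycosylation genes 4 rose and 6 fell (P4ha3 -1.27, Plod2 -1.22, P4ha1 -1.11, P3h2 1.27), of the 6 folding and export genes 1 rose and 4 fell (Serpinh1 -1.09, Fkbp10 -1.05), and of the 5 cross-linking enzymes 1 rose and 2 fell (Lox -1.04). Of the 13 genes of the breakdown list 5 rose (Mmp8 3.46, Mmp9 1.76 and, among the inhibitors, Timp4 0.30) and 3 fell, of which Timp1 (-0.74) and Timp3 (-0.50) are inhibitors and Fap (-0.93) is a protease. Of the 12 fibril-binding genes 5 rose and 2 fell (Prelp 2.09, Lum -2.08), of the 9 receptors 2 rose and 4 fell (Itga1 1.64, Itga2 -1.56, Ddr2 -1.44), of the 6 propeptide-cleavage genes 3 rose and 1 fell (Adamts3 -1.17), and of the 6 basement membrane partners 1 rose and 1 fell. Of the hepatic stellate cell markers 4 of 10 rose (Lrat 1.69) and 5 fell (Des -1.13), with a mean signal of 8.37 to 8.42 at F16 and 8.51 to 8.59 at P4. All these liver changes include F16 replicates 1, 3 and 4, which carried muscle fibre markers, and whether they hold without those arrays was not tested.

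The non-collagen genes whose signal ran most like Col1a1 over the 24 liver arrays were Postn, a matrix protein of mesenchyme (Pearson r = 0.95), Lrrc17 (0.93), and Lgals1, Capn6 and Itm2a (0.92 each). Over the 30 muscle arrays they were Abcc9 (2 probe sets), Itga6, Bgn and Dpt (0.98 each). For Col4a1 they were Galnt18, Tut4, Ctr9, Atp6v1c2 and Tgm4 in liver (0.82 to 0.87) and Tns1, Plec, Myo1c, Dysf and Csf1 in muscle (0.98 to 0.99). These are descriptions over arrays that share their time points, and the arrays with markers of the other tissue are among them.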

How the data were processed

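The deposited values were log2 signals that the authors made from their array scans by robust multi-array averaging (RMA) in Affymetrix Expression Console (version not given in the sources used here), each tissue apart, and no further normalisation or filter was applied. Of the probe sets of the table, 15310 carried a single gene symbol in the platform annotation, 323 several and 13581 none, and only the first were tested. All 27 collagen probe sets matched a current RefSeq gene record by gene ID. Moderated linear models (limma 3.58.1, R 4.3.3) were fitted to all groups of a tissue, and to all 54 arrays for differences between tissues (liver change minus muscle change). P-values were adjusted after Benjamini-Hochberg over the 15310 probe sets and called at 0.05, and the fits were tested on simulated data. Intervals cover 95%. The number of arrays limits the precision, and p-values measure the spread between samples, whose litters were not given. Members and gene lists were chosen with earlier results of these data known. Genes were named by a fixed rule: the 5 largest called and non-overlapping changes in each direction, the type I, III and IV chains, members called in opposite directions, up to 3 members a step and direction, up to 4 partners a list, and the 5 genes most like Col1a1 and Col4a1. Other genes were named after their values were seen. Alternatives were the threshold, a filter on dim probe sets, the groups fitted, normalisation, scaling, variance prior, array weights, a replicate block, probe sets averaged by gene, all probe sets tested, and arrays left out. Leaving out arrays with markers of the other tissue was chosen after seeing the data.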

Additional observations from a re-analysis of the deposited data

Results flagged for a closer look

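Within groups, 120 groups of arrays of 10 collagen probe sets were tested for an array far from the others, and chance gives such an array in about 1 of 20 groups. A high array was found for Col4a1 in liver F20 (replicate 3 at 7.86 with the next at 7.73, gap over range 0.945), Col1a1 in muscle F20 (replicate 5 at 13.63, next 13.51, 0.714), Col1a2 in muscle F22 (replicate 5 at 13.43, next 13.34, 0.764) and Col23a1 in muscle F22 (replicate 5 at 8.94, next 8.76, 0.786). A low array was found for Col5a3 in liver F20 (replicate 2 at 7.05, next 7.28, 0.872).

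The change from F16 to P4 differed between the tissues, as liver change minus muscle change on the log2 scale, by -2.93 for Col1a1, -2.21 for Col1a2, -1.93 for Col3a1, -1.55 for Col12a1, -1.28 for Col5a2, -1.20 for Col17a1, -1.07 for Col4a1, -0.98 for Col5a1, -0.86 for Col14a1, -0.76 for Col5a3, -0.73 for Col10a1, -0.57 for Col11a1, -0.52 for Col16a1, -0.49 for Col7a1 and -0.36 for Col11a2. It was higher in liver by 0.38 for Col27a1, 0.46 for Col23a1, 0.53 for Col9a2 and 1.39 for Col9a1. From F22 to P1 it was higher in liver by 0.25 for Col13a1, 0.25 for Col16a1, 0.36 for Col27a1, 0.37 for Col11a1 and 0.38 for Col11a2.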

How the results depend on the processing

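Counts below are collagen probe sets called, higher and lower together. At an unadjusted p of at most 0.05 there were 7 in liver from F16 to F20, and in muscle 13 from F20 to F22 and 8 from F22 to P1. With bright probe sets only, where fewer members are tested by construction, liver had 6 over all time points, 5 from F16 to P4, 2 from F16 to F20, 1 from F22 to P1 and 3 from P4 to P90, and the tissue difference 6 from F16 to P4 and 0 from F22 to P1. With 5 time points there were 13 over all in liver and 3 in muscle from F20 to F22. Quantile normalisation again gave 1 in liver from F20 to F22 and 8 in muscle from F20 to F22, and median centring 1 in liver from F20 to F22. Array weights gave 7, 1 and 1 in liver from F16 to F20, F20 to F22 and F22 to P1, and 11 and 11 in muscle from F20 to F22 and F22 to P1. Without the 4 muscle arrays that lay apart (F16 replicate 5, F20 replicates 4 and 5, F22 replicate 5) there were 8 from F20 to F22 and 9 from F22 to P1. Without the arrays with markers of the other tissue liver had 4 from F16 to P4, 1 from F16 to F20 and 1 from F22 to P1, muscle had 8 from F20 to F22, and the liver changes of Col3a1 and Col5a2 from F16 to P4 turned to 0.093 and 0.061. Liver F16 rested on replicate 2 alone in that setting, and the cause of these shifts was not tested.

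Leaving out 1 array at a time gave in liver 5 to 11 from F16 to P4 (5 without F16 replicate 4), 0 to 8 from F16 to F20 (0 without F16 replicate 1, 8 without F16 replicate 2), 0 to 3 from F20 to F22 (3 without F20 replicate 2), 1 to 3 from F22 to P1 (1 without F22 replicate 2), 1 to 2 from P1 to P4 (2 without P4 replicate 1) and 12 to 19 from P4 to P90. In muscle it gave 2 to 8 from F20 to F22 (2 without F22 replicate 5) and 3 to 7 from P1 to P4 (3 without P4 replicate 5), and 3 to 6 for the tissue difference from F22 to P1 (3 without liver F22 replicate 2). Arrays with the same replicate number did not deviate together (mean correlation of deviations 0.0017 in liver and -0.017 in muscle), 8 of 24 liver and 2 of 30 muscle arrays were closest to their own number, and with a replicate block 10 were called in liver and 23 in muscle from F16 to P4. Dim signal limits the liver, where 21 of 27 members lay at or below the median.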
